A study of Mus musculus with 2 samples.

Results

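The 5 NF-κB subunit genes of the mouse, Nfkb1, Nfkb2, Rel, Rela and Relb, were described in the nuclear RNA of macrophages that had met a bacterial stimulus before. They were chosen by symbol, as 5 of the 55536 annotated genes measured, and carry 36 annotated transcripts. Bone-marrow-derived macrophages from C57BL/6J mice were kept with Lipid A, the membrane anchor of lipopolysaccharide and the ligand of the receptor TLR4, at 100 ng/ml for 12 h. They then rested without it for 12 h and received the same dose again for 40 min. Total RNA of the nuclear fraction, which the labels describe as nucleoplasmic, was depleted of ribosomal RNA and sequenced. Both libraries belonged to this 1 group, and every value below is from restimulated cells.

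The input was 1 µg of RNA for library 1 and 500 ng for library 2. The labels give them as biological replicates but name the same donor entry for both, and give no sex or age, which may make their spread narrower than that between animals. With 1 group of 2 libraries there was no comparison between conditions and no test, and all values are descriptions. Levels are given in TPM, a relative abundance scaled by transcript length and by the total of the library. The TPM of a gene is the sum over its annotated transcripts. Where these cover different parts of a gene, 1 molecule can add to several of them, so TPM compares genes only roughly. Library 1 held 19797829 estimated counts on named genes and library 2 held 17213606. Mitochondrial transcripts took 2.63% of these counts in library 1 and 6.60% in library 2. All 8 macrophage markers were detected, with means from 39.8 to 1311 TPM, where detection meant at least 10 estimated counts in both libraries. Of 29 markers of 7 other cell types 5 were detected, with a median of 0.0600 TPM over the 29, and the highest was Kdr at 11.2 TPM. None of the markers of T cells, natural killer cells, neutrophils and fibroblasts was detected, and the part of other cells in the results was not tested.

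NF-κB is a family of transcription factors that bind DNA as dimers through a shared Rel homology domain. In resting macrophages inhibitors of the IκB family hold the dimers in the cytoplasm, and signals from TLR4 activate kinases that have the inhibitors degraded. Nfkb1 and Nfkb2 encode the long precursors p105 and p100, whose C-terminal ankyrin repeats act as inhibitors and whose N-terminal parts are the subunits p50 and p52. Rel, Rela and Relb encode c-Rel, RelA (p65) and RelB, which carry a transactivation domain that p50 and p52 lack. Several of these genes are themselves known targets of NF-κB.

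All 5 genes were detected in both libraries, where 13757 of the 55536 annotated genes were. Each of the 5 lay above the 80th percentile of the detected protein-coding genes in each library. Together they took 0.108% of all counts in library 1 and 0.0907% in library 2. The main values below come from the program RSEM. At the level of the whole gene Nfkb1 had the highest TPM in both libraries, and Rela and Relb had the lowest. When only transcripts with a complete coding sequence were counted, the order changed: Rel was first and Nfkb1 last in both libraries. Rel has 1 annotated transcript, which is complete coding, so its value could not fall. In library 2 Nfkb1 was close to Relb (6.55 and 6.92 TPM), and with kallisto Nfkb1 was last in library 1 only. Most of the Nfkb1 signal was assigned to transcripts annotated as retaining an intron.

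Nfkb1, which encodes p105 and p50, had 81.9 TPM in library 1 and 51.4 in library 2, a mean of 66.7 ± 21.6 (SD, n = 2). This placed it at the 94.45th and 93.2nd percentile of the 10991 detected protein-coding genes. It rested on 4931 estimated counts in library 1 (exact Poisson 95% interval 4794 to 5071) and on 3217 in library 2 (3107 to 3330). The intervals hold counting error alone, because without molecular identifiers reads do not stand for independent molecules. In bulk RNA, fewer cells with a transcript and less of it per cell cannot be told apart.

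Nfkb2, which encodes p100 and p52, had 57.9 TPM in library 1 and 33.1 in library 2 (45.5 ± 17.5, SD, n = 2), from 3802 and 2298 counts. Its percentiles were 91.9 and 88.7.

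Rel, the gene of c-Rel, was at 57.7 TPM and 48.6 TPM (53.2 ± 6.39, SD, n = 2), at percentiles 91.8 and 92.7. It had the most counts of the family, 8973 in library 1 (8788 to 9161) and 7969 in library 2 (7795 to 8146). These were 42.1% and 51.1% of the counts of the 5 genes, from a transcript of 7466 bases, the longest of the family.

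Rela, the gene of the p65 subunit, was at 34.6 TPM and 21.9 TPM (28.2 ± 8.92, SD, n = 2), at percentiles 85.4 and 82.6, from 1734 and 1127 counts. Relb, the gene of the usual partner of p52, was at 42.1 TPM and 19.7 TPM (30.9 ± 15.8, SD, n = 2), at percentiles 88.1 and 80.4, from 1898 and 998 counts. Relb was above Rela in library 1 and below it in library 2. By RSEM, Nfkb1 and Rel were the members among the upper 10% of those genes in both libraries, 2 of 5, where 8.82% of genes were. By kallisto the 2 members were Nfkb1 and Nfkb2, where 8.92% of genes were, and Rel was at percentiles 88.2 and 90.1.

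The order by mean TPM was Nfkb1, Rel, Nfkb2, Relb, Rela. No pair of neighbours in it differed by more than the sum of their SDs. Nfkb1 lay 1.42 times above Rel in library 1 and 1.06 times above it in library 2, while Rel and Nfkb2 changed places between the libraries. A second program, kallisto, gave Nfkb1 22.4 and 35.9 TPM, Nfkb2 18.5 and 28.0 TPM, Rel 13.8 and 27.8 TPM, Rela 17.0 and 26.35 TPM, and Relb 14.3 and 17.0 TPM. Nfkb1 was again first in both libraries. The kallisto values were higher in library 2 for all 5 genes and the RSEM values were lower there. This follows the scale of the tables: over the 13757 detected genes the median log2 ratio of library 2 to library 1 was -0.38 for RSEM and 0.86 for kallisto.

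**Figure D1:**
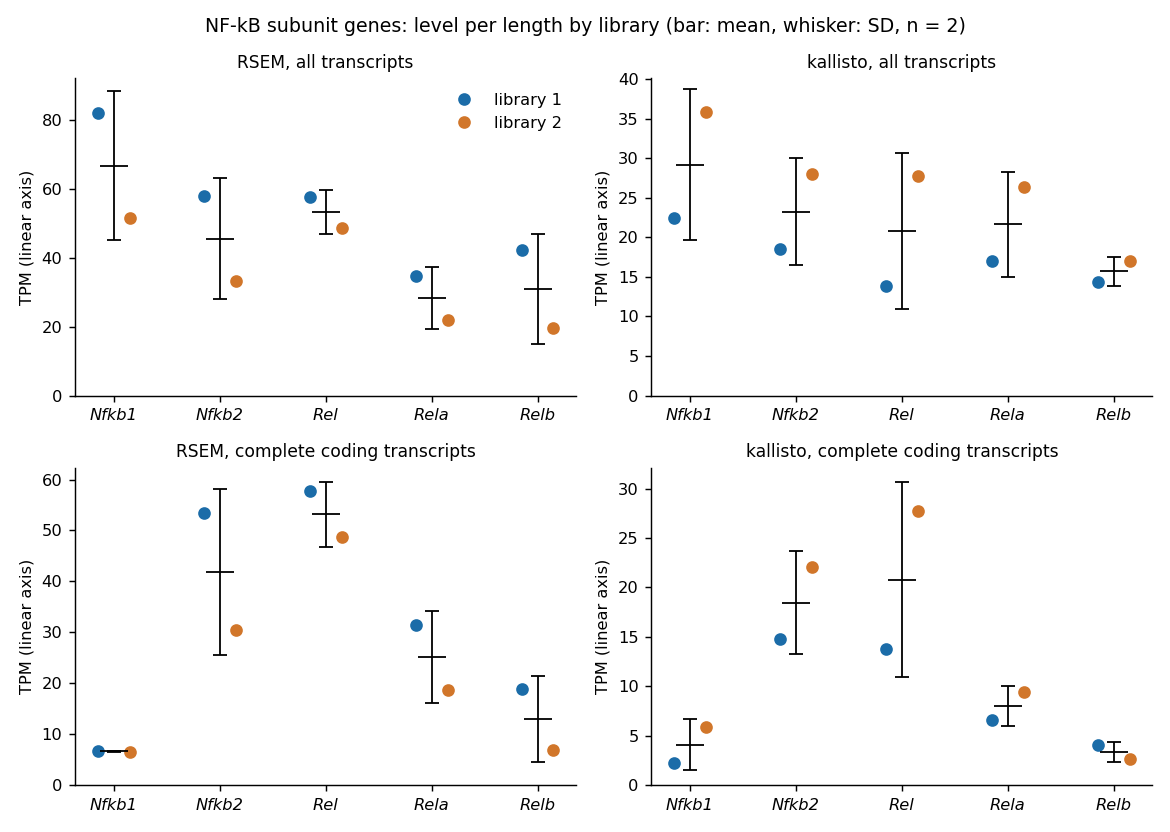
TPM of each subunit gene (vertical axes, linear, starting at 0) in library 1 and library 2, by RSEM (left) and kallisto (right), for all transcripts (top) and for transcripts with a complete coding sequence (bottom); bars are means and whiskers SDs of the 2 libraries. Nfkb1 is the highest gene in the upper panels and is at 6.65 and 6.55 TPM in the lower left panel, below the other 4 genes.

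The annotation splits the 36 transcripts into those with a complete coding sequence, those with an incomplete one, retained-intron transcripts, targets of nonsense-mediated decay (the pathway that degrades RNA with an early stop) and others. Retained-intron transcripts held 78.3% of the Nfkb1 TPM in library 1 and 66.9% in library 2, or 64.1 and 34.4 TPM. Among 5097 genes that have such a transcript and at least 100 counts in both libraries, Nfkb1 lay at the 98.6th and 95.4th percentile, where the median gene had 25.15% and 22.2%. Relb had 35.0% and 46.2% (percentiles 66.9 and 82.9). Nfkb2 had 6.19% and 6.67% (percentiles 10.7 and 17.7) and Rela had 6.19% and 5.34% (percentiles 10.8 and 14.7). Rel has 1 annotated transcript and no retained-intron form, so the measure could not be taken for it.

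Of the 4 genes with the measure, 1, Nfkb1, had a share of at least 50% in both libraries, where 10.3% of genes did. With kallisto the Nfkb1 share was 79.0% and 70.5%, at percentiles 94.4 and 90.9 of 6228 genes, and it was again the only one of the 4 past 50% in both libraries, beside 18.9% of genes. Kallisto gave Relb 38.6% and 53.1%, Nfkb2 10.6% and 8.17%, and Rela 13.7% and 15.4%. Nfkb1 and Relb were above the median gene and Nfkb2 and Rela below it in both libraries with both programs. The tables hold no entry for unspliced precursor RNA, so a fragment from an intron can be assigned only to an annotated transcript that covers it. In nuclear RNA a precursor still being spliced and a finished transcript that keeps an intron cannot be told apart here. The 4 retained-intron transcripts of Nfkb1 cover different parts of the gene, so 1 precursor molecule could add TPM to several of them. The rank and the share of Nfkb1 therefore do not give numbers of molecules.

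**Figure D2:**
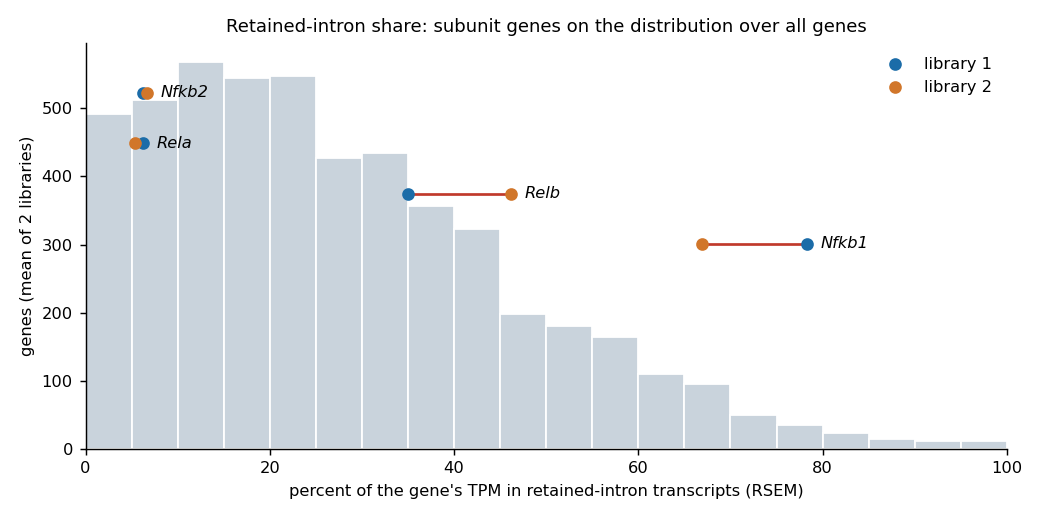
Number of genes (vertical axis) by the percent of the gene's RSEM TPM in retained-intron transcripts (horizontal axis, mean of 2 libraries); points joined by a line are the 2 libraries of each subunit gene, placed at arbitrary heights. Nfkb1 lies far to the right at 66.9% and 78.3%, Relb at 35.0% and 46.2%, and Nfkb2 and Rela near the left end.

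The complete coding share shows the other side. It was 8.12% and 12.7% of TPM for Nfkb1, at percentiles 1.39 and 2.87 of 7641 genes, where the median gene had 69.45% and 73.9%. By RSEM the complete coding share was 92.4% and 91.7% for Nfkb2, 91.0% and 85.2% for Rela, 44.9% and 35.2% for Relb, and by annotation 100% for Rel. The Nfkb2 value includes Nfkb2-206, which is annotated as coding but keeps the last intron. That transcript had 17.3 and 10.8 TPM, or 29.8% and 32.7% of the gene, and shares and orders without it were not computed. On complete coding TPM the order was Rel at 53.2 ± 6.39, Nfkb2 at 41.9 ± 16.3, Rela at 25.1 ± 9.02, Relb at 12.9 ± 8.46 and Nfkb1 at 6.60 ± 0.0707 (SD, n = 2). Both libraries gave this order, although no neighbours differed by more than the sum of their SDs. Rel exceeded Nfkb2 by 1.08 times in library 1 and by 1.60 times in library 2. With kallisto Rel and Nfkb2 were again the first and second by mean (20.8 ± 9.87 and 18.4 ± 5.22, n = 2), and Nfkb1 (4.07 ± 2.58) and Relb (3.32 ± 1.03) the last. The kallisto order was not the same in both libraries. Nfkb2 was above Rel in library 1 (14.7 and 13.8 TPM) and below it in library 2 (22.1 and 27.8 TPM), and Nfkb1 was below Relb in library 1 (2.24 and 4.04 TPM) and above it in library 2 (5.89 and 2.59 TPM).

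**Figure D3:**
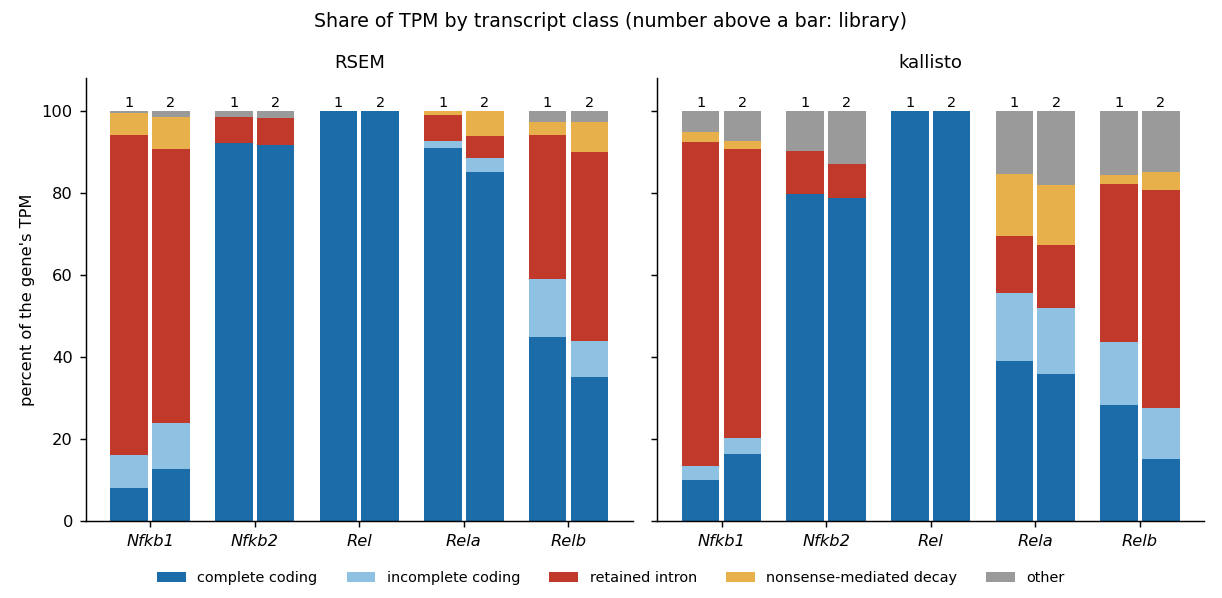
Percent of each gene's TPM (vertical axis) by transcript class in library 1 and library 2 (numbers above the bars), by RSEM (left) and kallisto (right). The retained-intron part fills 66.9% to 79.0% of the 4 Nfkb1 bars, while the complete coding part fills 78.9% or more of the Nfkb2 bars and all of the Rel bars; for Rela it is 85.2% or more with RSEM and 35.9% and 38.9% with kallisto.

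Nfkb1 (ENSMUSG00000028163.17) lies on the minus strand of chromosome 3, at 135584655 to 135691547 in the mm10 build, a span of 106893 bases with 10 annotated transcripts. Its reference coding transcript Nfkb1-201 has 25 exons and 971 codons. Both retained-intron transcripts that extend over many exons, Nfkb1-204 and Nfkb1-202, turn on intron 12, which spans 4118 bases (chr3:135608296-135612413). Nfkb1-204 runs from the first exon through exon 12 and 1824 bases into this intron, where it ends. Nfkb1-202 begins 188 bases before exon 13, in the same intron, and runs on into the last exon of the gene. The 352 whole codons before intron 12 are 36.3% of the coding sequence and come from the N-terminal side of p105, where the Rel homology domain lies. The ends of the intron are shown because the gene's most abundant transcript reads across the 5′ end and Nfkb1-202 across the 3′ end. Each is 60 bases of the minus strand with 20 bases of exon, from the GENCODE M21 transcripts, and the capitals mark the bases of the splice donor (chr3:135612374-135612433) and of the splice acceptor (chr3:135608276-135608335).
Nfkb1 intron 12, 5′ end: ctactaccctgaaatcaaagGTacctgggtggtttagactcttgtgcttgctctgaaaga
Nfkb1 intron 12, 3′ end: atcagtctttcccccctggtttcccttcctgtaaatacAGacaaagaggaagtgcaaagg

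Nfkb1-204 was the most abundant transcript of the gene in both libraries, at 27.8 and 14.6 TPM, or 34.0% and 28.4% of the gene. Kallisto gave it 34.1% and 28.5%. Nfkb1-202 had 9.92 and 3.31 TPM, 12.1% and 6.44% with RSEM and 17.1% and 13.3% with kallisto. Together the pair held 46.1% and 34.8% of the gene (kallisto 51.3% and 41.8%). In Nfkb1-204 53.9% of the 3383 bases are intronic, against 7.46% of the 2520 bases of Nfkb1-202. The estimate of Nfkb1-202 therefore need not come from reads in the intron, and this was not tested.

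Nfkb1-208 and Nfkb1-210 are single unspliced blocks inside the gene. Nfkb1-208 covers exon 8 with parts of introns 7 and 8, and 96.05% of its 4149 bases are intronic. It had 14.6 and 10.04 TPM, or 17.8% and 19.5% of the gene, from 1232 and 892 counts. Nfkb1-210 covers exon 16 with parts of introns 15 and 16, is 92.9% intronic over 2001 bases, and had 11.8 and 6.46 TPM, or 14.4% and 12.6%. Together these blocks held 32.2% and 32.1% of the gene with RSEM and 27.7% and 28.7% with kallisto, a share that differed less between the libraries than that of the pair around intron 12.

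The complete coding signal of Nfkb1 was in Nfkb1-206, a form with 23 exons and the same 971 codons, at 6.65 and 6.55 TPM (8.12% and 12.7%). Nfkb1-201 was at 0 in both libraries with RSEM and at 0.773% and 1.68% with kallisto. The unspliced blocks thus stood at 26.4 and 16.5 TPM against 6.65 and 6.55 TPM for the complete coding forms. Nfkb1-203, a coding fragment without a complete reading frame, had 7.90% and 11.2%, and Nfkb1-207, a decay target, had 5.18% and 7.88%. Kallisto placed much less on this last transcript, 0.419% in library 1 and near 0 in library 2, and gave 4.96% and 7.24% to the processed transcript Nfkb1-205, which had 0.513% and 1.30% with RSEM.

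Another annotated gene, Gm43430 (ENSMUSG00000106149.1), lies on the same strand wholly inside intron 6 of Nfkb1, at chr3:135650670-135654566. Its annotated type, TEC, marks a locus with transcript evidence and no settled structure. It took 3017 and 1751 counts, or 38.1 and 21.1 TPM, which is above every transcript of Nfkb1 in these tables. Kallisto gave it 8.97 and 13.0 TPM. Its counts are not part of the Nfkb1 values, and RNA of this locus and precursor RNA of intron 6 cannot be told apart.

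**Figure D4:**
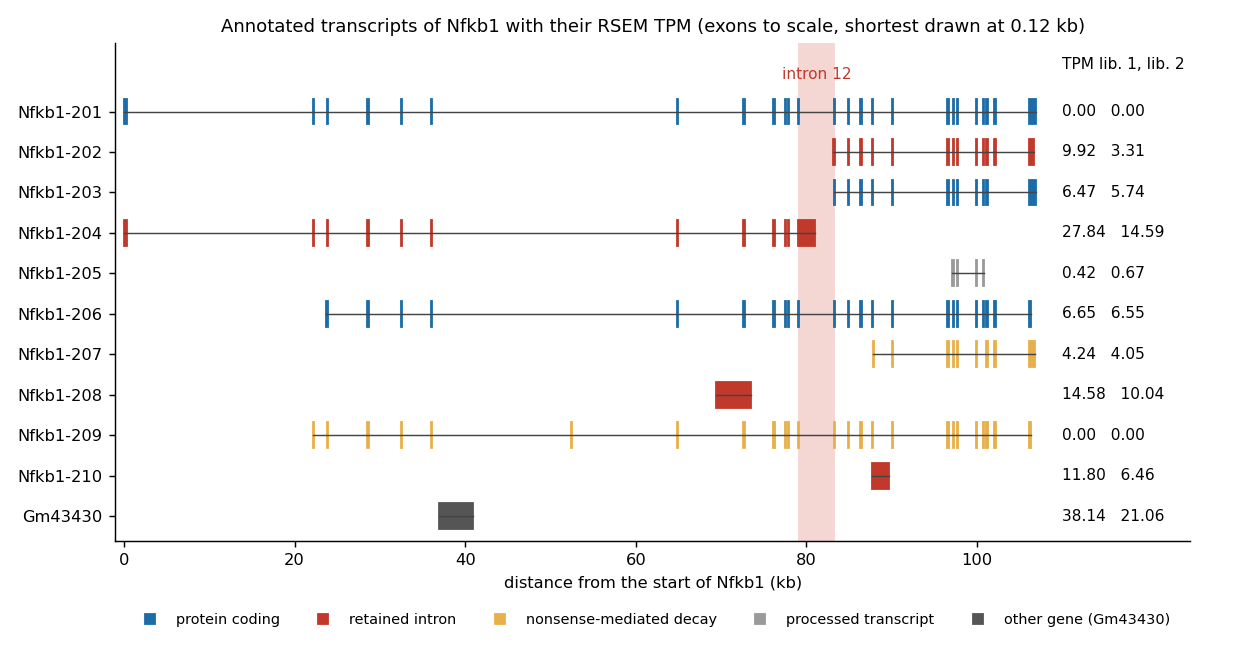
Annotated transcripts of Nfkb1 and of Gm43430 along the distance from the start of Nfkb1 (horizontal axis, kb), with exons as boxes coloured by type, intron 12 shaded and the RSEM TPM of libraries 1 and 2 at the right. Nfkb1-204 (27.8 and 14.6 TPM) stops and Nfkb1-202 (9.92 and 3.31 TPM) starts inside the shaded intron, and Nfkb1-208 and Nfkb1-210 are unspliced blocks.

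Nfkb2 (ENSMUSG00000025225.15) is a compact gene of 8066 bases on the plus strand, at chr19:46304320-46312385, with 8 transcripts. Its largest part was Nfkb2-202, which encodes all 899 codons of p100, at 25.6 and 15.1 TPM, or 44.3% and 45.5% of the gene. Nfkb2-206 followed at 17.3 and 10.8 TPM, or 29.8% and 32.7% (kallisto 22.4% and 21.8%). The annotation lists Nfkb2-206 as protein-coding, yet it keeps the whole last intron of 80 bases (chr19:46311693-46311772). It shares 859 codons with Nfkb2-202 and then reads 19 codons of its own in place of the last 40. The C-terminal end of p100 is known for the phosphorylation sites through which the kinase NIK triggers processing to p52. The intron is printed because the second most abundant transcript of the gene reads through it. It is the plus strand with 20 bases of the exon before it (chr19:46311673-46311772), and capitals mark the bases at its ends.
Nfkb2 last intron: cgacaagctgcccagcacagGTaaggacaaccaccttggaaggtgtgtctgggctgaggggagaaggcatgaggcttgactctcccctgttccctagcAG

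The retained-intron share of Nfkb2 given above does not include this transcript. With it, a choice made after seeing the data, the share was 36.0% and 39.4% (kallisto 33.0% and 30.01%) in place of 6.19% and 6.67%. These values lie above the median gene of the annotated class, at 25.15% and 22.2% by RSEM and 31.4% and 29.7% by kallisto. The medians were not recounted in the same way. The kept intron is 2.08% of the 3846 bases of Nfkb2-206, whose ends reach into genes on the other strand described below. Its estimate therefore need not come from reads in the intron, and this was not tested. The transcripts annotated as retained introns were nearly all Nfkb2-207, which keeps introns 2 and 12, of 121 and 80 bases, and had 6.19% and 6.37% of the gene. Nfkb2-205, which keeps intron 2 alone, was at 0% and 0.302%. A pair of minor coding forms differed between the programs: Nfkb2-201 had 13.1% and 11.0% with RSEM and near 0 with kallisto, while Nfkb2-204 had 5.17% and 2.51% by RSEM against 15.7% and 20.5% by kallisto. The short processed transcript Nfkb2-203 had 1.45% and 1.66% by RSEM against 9.63% and 12.9% by kallisto.

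The coding transcripts of Nfkb2 begin at separate places. Nfkb2-201, Nfkb2-204 and Nfkb2-206 start upstream, between 46304320 and 46304800, and held 48.1% and 46.2% of the gene (kallisto 38.1% and 42.3%). Nfkb2-202 starts downstream at 46305696 and held 44.3% and 45.5% (kallisto 41.7% and 36.6%). By these estimates the upstream and downstream starts held similar parts of the gene in both libraries. The upstream starts lie within AC114539.1, a gene on the other strand described below, and most of their share was that of Nfkb2-206. Whether reads of AC114539.1 entered the upstream share was not tested.

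Windows around the RefSeq start sites (build GRCm38.p6, 250 bases before to 50 after) were searched for the κB consensus, the motif that NF-κB dimers bind, on both strands. Of 32817 such windows over all genes, 2776 or 8.46% held it. The upstream start of Nfkb2 had matches 39 and 11 bases before the start at 46304737, the first of which reads as the consensus on both strands. The downstream start at 46305695 had a match 236 bases before it, on the minus strand, and another that begins 10 bases after it. A RefSeq start of Nfkb2 further downstream, at 46305930, had 1 match in its window, which is this same one, 225 bases before that start. The Rel window had a match 92 bases before the start at 23770969, on both strands. The Rela window had no match in these 300 bases. Promoter sequences of Nfkb1 and Relb were not analysed here. The matches are printed with capitals on the letters of the consensus, 30 bases each on the strand of the gene, because members of this family are known targets of their own product, and a match is a description and not a shown binding site.
Nfkb2 upstream start, chr19:46304689-46304718: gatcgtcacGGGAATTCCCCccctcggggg
Nfkb2 upstream start, chr19:46304716-46304745: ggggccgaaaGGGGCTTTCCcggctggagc
Nfkb2 downstream start, chr19:46305449-46305478: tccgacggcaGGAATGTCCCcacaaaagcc
Nfkb2 downstream start, chr19:46305695-46305724: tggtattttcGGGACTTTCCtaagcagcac
Rel start, chr11:23771041-23771070: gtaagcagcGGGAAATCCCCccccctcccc

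Genes on the other strand overlap both ends of Nfkb2. AC114539.1, a noncoding RNA from a bidirectional promoter, overlaps the 5′ end by 1292 bases and had 896 and 571 counts (26.8 and 17.2 TPM). Psd overlaps the 3′ end by 299 bases and had 702 and 343 counts (36.4 and 17.4 TPM). Whether the counting used strand is not given in the sources used here, so in the overlaps reads of Nfkb2 and of these genes may not be separated.

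Rel (ENSMUSG00000020275.9) lies on the minus strand at chr11:23736847-23770970. Its only annotated transcript, Rel-201, has 588 codons, and its last exon takes 6194 of the 7466 bases. This length separates its orders by counts and by TPM: Rel was first by counts in both libraries, 1.82 and 2.48 times above Nfkb1, and by gene TPM it ranked 3 in library 1 and 2 in library 2. By mean counts Rel lay at 8471 ± 710 and Nfkb1 at 4074 ± 1212 (SD, n = 2), a difference larger than the SDs added together.

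Rela (ENSMUSG00000024927.8), on the plus strand at chr19:5637483-5648130, has 7 transcripts. With RSEM nearly all of its TPM was in Rela-201, the form with the full 549 codons, at 31.4 and 18.7 TPM (91.0% and 85.2%). Kallisto gave Rela-201 38.9% and 35.9%. It placed the rest on shorter or noncoding forms: Rela-205 had 16.8% and 16.1% (RSEM 1.82% and 3.38%), Rela-207 had 12.0% and 17.9% (RSEM 0), Rela-206 had 8.57% and 11.4% (RSEM 1.01% and 6.11%) and Rela-204 had 6.66% and 3.39% (RSEM 0). The single retained-intron form, Rela-203, enters intron 6 by 35 bases and had 2.14 and 1.17 TPM from 26.7 and 14.9 counts, so its share rests on few reads. In estimated counts that form was 1.54% and 1.33% of the gene.

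Relb (ENSMUSG00000002983.17), on the minus strand at chr7:19606217-19629438, has 10 transcripts. Its 3 retained-intron forms, Relb-205, Relb-206 and Relb-208, all extend the exon after intron 5 backwards into that intron of 1324 bases, by 966 bases in Relb-205 and Relb-206 and by 1024 in Relb-208. As a group they had 14.7 and 9.09 TPM, or 35.0% and 46.2% of the gene (kallisto 38.6% and 53.1%). The programs spread the group differently over its members. RSEM gave Relb-206 27.5% and 36.7%, Relb-208 7.46% and 9.45% and Relb-205 0, while kallisto gave Relb-205 19.5% and 20.2%, Relb-208 19.1% and 25.4% and Relb-206 near 0 and 7.62%. The group share was closer between the programs than that of any of its 3 forms. The end of intron 5 is shown because these forms lack this splice junction, 60 bases of the minus strand at chr7:19616418-19616477 with the acceptor in capitals.
Relb intron 5, 3′ end: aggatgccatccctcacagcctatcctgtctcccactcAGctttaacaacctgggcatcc

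The coding forms Relb-202 and Relb-201 differ by exon 3 alone, of 9 bases (chr7:19622926-19622934), which adds 3 codons and makes 558 of 555. RSEM put the complete coding signal on Relb-202, at 44.8% and 29.6% of the gene, with 0.119% and 0% on Relb-201. Kallisto put it on Relb-201, at 25.4% and 15.2%, with 2.80% and near 0 on Relb-202. Summed over all 10 transcripts, those with the exon held 72.4% and 63.3% with RSEM and 74.6% and 77.2% with kallisto, so the programs were nearer for the exon than for the coding transcript that carries it. Both forms are printed across the junction, with the exon in capitals.
Relb-202: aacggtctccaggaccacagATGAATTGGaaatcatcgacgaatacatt
Relb-201: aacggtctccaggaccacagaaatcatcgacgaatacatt

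Of the other Relb forms, the coding fragment Relb-209 had 14.3% and 8.69%, and the decay target Relb-210 had 3.21% and 7.42%. Relb-203, a coding form of 558 codons that takes in 2 bases of intron 2, had 0% and 5.59% with RSEM and near 0 with kallisto. The processed transcript Relb-204 had 2.69% and 2.54% by RSEM against 15.6% and 14.8% by kallisto.

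The gap between the libraries was read after centring on the median gene. Rel was the only member higher in library 2, by 0.13 on the log2 scale. Nfkb1 fell by 0.30, Nfkb2 by 0.43 and Rela by 0.28 on the log2 scale from library 1 to library 2, and Relb by 0.72, which is 1.65-fold higher in library 1. None of the 5 passed 2-fold, where 3.77% of the 8936 genes with a mean of at least 100 counts did. Relb lay at the 5.78th percentile of these gaps and the other 4 genes between the 16.6th and the 62.7th. Kallisto gave -0.18, -0.26, 0.15, -0.23 and -0.62 for Nfkb1, Nfkb2, Rel, Rela and Relb, with the same signs. The RNA input, the mitochondrial share and the replicate number changed together between the libraries and cannot be told apart.

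A list of 31 pathway genes was set beside the subunits, and 30 were detected, where 13757 of all 55536 annotated genes were. The IκB family, which holds NF-κB in the cytoplasm or modulates it in the nucleus, was detected in full (6 of 6), from Nfkbia, the gene of IκBα, at 491 and 277 TPM to Bcl3, a nuclear cofactor of p50 and p52, at 21.6 and 11.1 TPM. The canonical kinases and their adaptors were all detected (7 of 7), with Ikbkb, the kinase IKKβ, highest at 54.8 and 39.2 TPM and Tab3, an adaptor of TAK1, lowest at 4.10 and 2.22 TPM. Among 5 genes that control the non-canonical pathway Birc3, the ubiquitin ligase cIAP2, stood at 206 and 134 TPM. Map3k14, the kinase NIK that acts on p100, was at 10.2 and 6.41 TPM and is named for its role beside Nfkb2, with its values known, and Traf3, which holds NIK low, was the lowest at 9.01 and 5.64 TPM.

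Of 4 genes for partners of p105 and for the ligase of IκB and precursor turnover, Map3k8, the kinase Tpl2 that p105 binds, was highest at 70.8 and 37.5 TPM and Btrc lowest at 13.5 and 9.23 TPM. The modifiers and terminators of nuclear RelA were low: Setd6, a methyltransferase of RelA, was highest at 7.14 and 2.97 TPM, Commd1 was at 1.56 and 1.14 TPM, and Ppp1r13l, with 9 and 10 counts, did not pass detection. All 5 receptors were detected, from Tnfrsf1b, a receptor of TNF, at 299 and 235 TPM to Ltbr, a receptor that acts through the non-canonical pathway, at 9.57 and 8.06 TPM.

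None of the 30 detected pathway genes passed 2-fold between the libraries, where 7.59% of all detected genes did. Among genes with a mean of at least 100 counts, as all of the 30 but Commd1 and Pdlim2 had, the share was 3.77%. After centring 25 were lower and 5 higher in library 2, with a median of -0.20 on the log2 scale. The centring sets the median of all detected genes to 0. The median absolute gap was 0.29 over all detected genes with a mean of at least 100 counts. Whether genes of like level lean the same way was not tested. With RSEM the retained-intron share could be taken in 18 of them, and 1, Ikbkb, had at least 50% in both libraries (55.7% and 60.45%), beside 10.3% of all genes with the measure. With kallisto it could be taken in 21, and 3 had at least 50% in both libraries, beside 18.9% of genes. These were Ikbkb (60.8% and 65.4%), Chuk, the kinase IKKα (73.7% and 71.8%), and Tnip2, a partner of p105 (63.7% and 50.5%), the last pair named after their values were seen. The kallisto share of Nfkb1 was above that of Chuk in library 1 and below it in library 2.

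**Figure D5:**
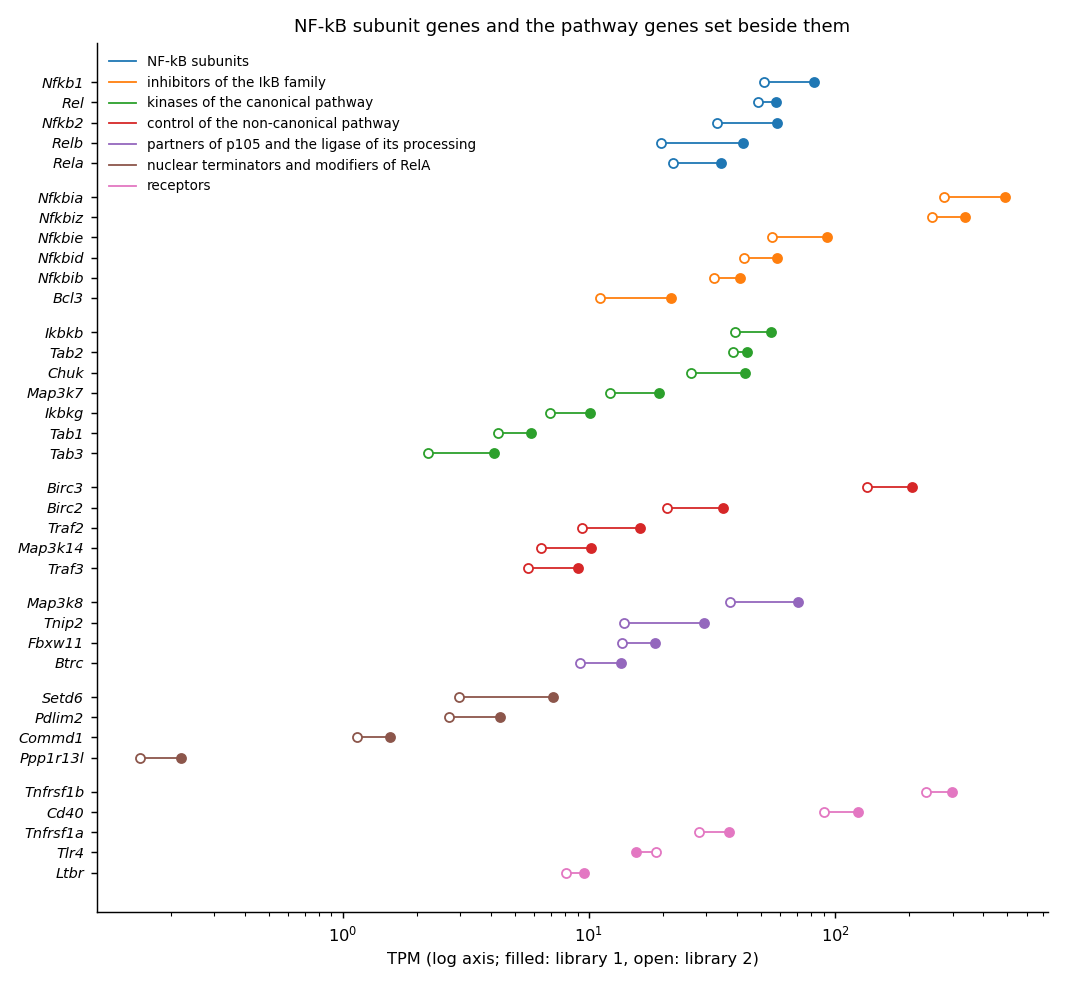
TPM by RSEM (horizontal axis, log scale) of the 5 subunit genes and the 31 pathway genes, grouped by role, with filled points for library 1 and open points for library 2. The subunits lie between 19.7 and 81.9 TPM, below Nfkbia (491 and 277 TPM) and Birc3 (206 and 134 TPM) and above the 4 modifiers and terminators of RelA.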

How the data were processed

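Each of the 2 libraries came with a gene and a transcript table in the RSEM layout and a transcript table in the kallisto layout. The notes deposited beside the files name the mm10 build and the GENCODE M21 annotation, and the sources used here give neither the aligner nor program versions. The expected counts, maximum-likelihood estimates that need not be whole, and the TPM, scaled by length over all features of the table, were used as the authors deposited them. The share of each transcript in its gene, in percent, is in the authors' tables and was recomputed here from transcript TPM. The deposited bounds of the TPM interval, held as a score with no level given, were not used.

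Genes were joined by identifier, and a gene was detected with 10 or more expected counts in both libraries. Shares over all genes used a minimum of 100 counts. Transcripts were compared with the exons of 1 complete coding transcript of each gene. Gaps between libraries are log2 TPM ratios centred on the median of detected genes, called past 2-fold. The measure of gaps was tested on simulated data with 200 changed genes, and that of shares only on a small made-up example with known answers. edgeR (4.0.16) and DESeq2 (1.42.0) gave alternative size factors only. Python 3.11.15, pandas 2.3.3 and R 4.3.3 were used. Transcripts were named if they held at least 5% of a gene in either library by either program (1% for retained introns), with overlapping genes and the highest and lowest pathway gene of each role. Members and lists were chosen with earlier results of these data known. Sequences are from GENCODE M21 transcripts and RefSeq promoter windows.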

Additional observations from a re-analysis of the deposited data

How the results depend on the processing

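The direction of each gap between the libraries was kept in 40 of 40 alternatives (edgeR and DESeq2 size factors, 3 other centring sets, 2 pseudocounts and kallisto). Each other centring set moves all gaps by the same amount, and all alternatives use the same 2 libraries, so the 40 are not independent checks. With kallisto the mean level was 29.2 TPM for Nfkb1, 23.3 for Nfkb2 and 20.8 for Rel. Rescaled over protein-coding genes outside the mitochondrial genome, the means were 264.9 TPM for Nfkb1, 179.8 for Nfkb2, 215.1 for Rel, 112.3 for Rela and 120.6 for Relb, since fewer features share the scaled total. The mean retained-intron share with kallisto was 9.39% for Nfkb2 and 14.6% for Rela. As a share of expected counts it was 5.51% for Nfkb2, 1.43% for Rela and 55.35% for Relb. With Nfkb2-206 counted whole, added after seeing the data, the mean share of RSEM TPM was 37.7% for Nfkb2. The centred log2 ratio was -0.18 for Nfkb1 and -0.26 for Nfkb2 with kallisto, and with a pseudocount of 1 it was -0.39 for Nfkb1, -0.51 for Nfkb2 and 0.0304 for Rel.

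In the order of the 5 levels Nfkb1 was rank 1 by gene TPM, 2 by counts, 5 by complete coding TPM and 4 by complete coding kallisto TPM. Nfkb2 was rank 3, and 2 by kallisto and by both complete coding orders. Rel was rank 2, 4 by kallisto, and 1 by counts and by both complete coding orders. Rela was rank 5, and 3 by kallisto and by both complete coding orders. Relb was rank 4, and 5 by both kallisto orders. Leaving out each library in turn, Nfkb2 and Rel ranged from 2 to 3 and Rela and Relb from 4 to 5. The complete coding orders were added after seeing the data. The causes of these differences were not tested. No paired analysis was possible because both libraries belong to 1 group. With 2 libraries the SDs are themselves imprecise, and shares of transcripts with few counts, such as Rela-203, are limited by depth.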

Other observations

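The RSEM tables also hold posterior mean estimates, which spread a gene over more of its transcripts than the maximum-likelihood values. On these Rela-201 held 86.5% and 77.1% of its gene in libraries 1 and 2, against 91.0% and 85.2%. Relb-202 held 38.3% and 24.8%, against 44.8% and 29.6%, and Relb-201 held 5.52% and 2.57%, against 0.119% and 0%. The Nfkb1 shares were nearly the same, with Nfkb1-204 at 33.8% and 28.2% against 34.0% and 28.4%. Among the pathway genes Cd40, the gene of a receptor that activates NF-κB, was singled out after its values were seen. It had 124 and 90.3 TPM with RSEM and 161 and 308 TPM with kallisto, so that in library 1 its kallisto value was above its RSEM value, opposite to the 5 subunit genes.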
